A study of Mus musculus with 11 samples.

Results

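The Wnt pathway was examined through 55 genes for its ligands, receptors and inhibitors, taken from a given list of mouse gene symbols and matched by Ensembl 96 symbol, each to 1 gene ID, out of 55536 genes counted in the files. They comprise 13 ligands, 2 genes of ligand secretion, 9 Frizzled receptors, 5 co-receptors, 10 secreted or surface inhibitors, 6 genes of the R-spondin axis, 8 intracellular components and 2 transcription factors. All 55 passed the filter on low counts and were tested among 20307 genes. RNA was sequenced from 4 FACS-sorted populations of dorsal skin epidermis of untreated male CD4Cre R26-tdT mice on a C57Bl6/N background, in which cells that express or once expressed a CD4Cre transgene keep the tdTomato (tdT) label. The populations were tdT+ and tdTneg CD49f+CD34+ cells without SCA-1, the gate of the hair follicle bulge (3 libraries each), and tdT+ (3 libraries) and tdTneg (2 libraries) CD49f+CD34+SCA-1+ cells. CD49f is integrin alpha 6, CD34 marks bulge cells of the mouse and SCA-1, encoded by Ly6a, marks the interfollicular epidermis (IFE) and infundibulum. Each library pooled cells of 2 mice, 29 weeks old for replicate 1 and 32 weeks old for replicates 2 and 3, and no group lacked the transgene or the reporter. CD4Cre is also active in T cells, and tdT records past as well as present activity.

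Wnt proteins are lipid-modified by Porcn, carried to the surface by Wls and bound there by Frizzled receptors with the co-receptors Lrp5 and Lrp6, which stabilizes beta-catenin and lets it act with Tcf and Lef factors on target genes. Secreted inhibitors such as Sfrp, Dkk and Wif proteins hold ligands or co-receptors back, and R-spondins bound to Lgr receptors spare Frizzled receptors from removal by Rnf43 and Znrf3. In skin the pathway is known for the growth of hair follicles and for the maintenance of both follicle and interfollicular stem cells.

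Total counts ranged from 17409131 to 46542177 per library. Keratinocyte genes (Krt5, Krt14, Trp63) were high in every library, at a summed 12028 CPM (counts per 1e6, scaled with TMM factors) or more. The 1 row of the files outside the Ensembl genes, which has an accession in place of a gene name, held 133 to 307 CPM of the unscaled library total in 5 of the 6 tdT+ libraries, 2.54 to 4.89 in tdTneg libraries and 2.05 in the library labelled replicate 2 of tdT+ CD49f+CD34+ cells. If the row counts reporter transcripts, which was assumed here and is not stated in the sources used, this library went against its label, and results were therefore also computed without it. Cd34 mRNA also went against a gate, at 22.3 to 35.7 CPM in the 3 tdT+ CD49f+CD34+SCA-1+ libraries, 319.6 and 383 CPM in the tdTneg ones and 468 to 1130.1 CPM in CD49f+CD34+ libraries. Endothelial markers summed to 1833 and 1931 CPM in the tdTneg CD49f+CD34+SCA-1+ libraries and to 6.28 to 485 CPM in all others, and the 485 CPM belonged to the library labelled replicate 2 of tdT+ CD49f+CD34+ cells. These are sorted bulk samples, in which fewer cells of a type and less RNA per cell cannot be told apart.

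The first comparison was between the CD49f+CD34+SCA-1+ cells and those without SCA-1, averaging the contrast of tdT+ cells with that of tdTneg cells. Of 13 ligands, 5 (Wnt3, Wnt3a, Wnt5a, Wnt10a and Wnt16) were higher in CD49f+CD34+SCA-1+ cells and Wnt5b was lower. The receptor Fzd10, the inhibitor Apcdd1 and the R-spondin Rspo3 were also higher, whereas 5 other Frizzled receptors, the R-spondin receptors Lgr4 and Lgr5, the co-receptor Ror2, the inhibitors Sfrp1, Dkk3 and Wif1 and the Dishevelled-binding Nkd1 were lower. By edgeR's quasi-likelihood test with Benjamini-Hochberg adjustment over all genes, 21 of the 55 genes were called (adjusted p below 0.05 with a log2 fold change beyond 1 in either direction), 38.2% of them, against 11.6% of all genes tested. Of these, 8 were higher (background 4.77%) and 13 lower (background 6.79%). The 55 genes were chosen with earlier results of these data known, so this excess over the background is not a test of the pathway. Of 58 other pathway genes tested, 2 were called higher and 7 lower. In 21 of the 55 genes the CPM of the 5 CD49f+CD34+SCA-1+ and the 6 CD49f+CD34+ libraries did not overlap, against 10.8% of all genes. The median log2 fold change of the 55 genes was -0.04, and that of all genes was -0.09. All 21 calls held without the library labelled replicate 2 of tdT+ CD49f+CD34+ cells, with the replicate number as a block and with DESeq2. With replicates 2 and 3 alone, whose mice were 32 weeks old, 7 of the 21 passed and all 21 kept their direction. The bulge and IFE markers moved with the population: 6 of 7 bulge genes were called lower (summed 8406 to 12595 CPM in CD49f+CD34+SCA-1+ and 15030.4 to 27757 CPM in CD49f+CD34+ libraries) and 3 of 4 suprabasal IFE genes higher. All 13 T cell markers were called higher (227 to 1522 against 30.9 to 139 CPM in sum), as were 4 of 6 Langerhans cell markers (268 to 840 against 124 to 449 CPM, with overlap), and 3 of 6 melanocyte markers were called lower (15.4 to 57.1 against 93.5 to 159 CPM). Of 5 dermal papilla markers 1 was called lower. Of 8 endothelial markers 0 were called, while all 8 had a positive difference and 2 were higher at an unadjusted p under 0.05. The part of these cells in the Wnt gene differences was not tested.

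**Figure D1:**
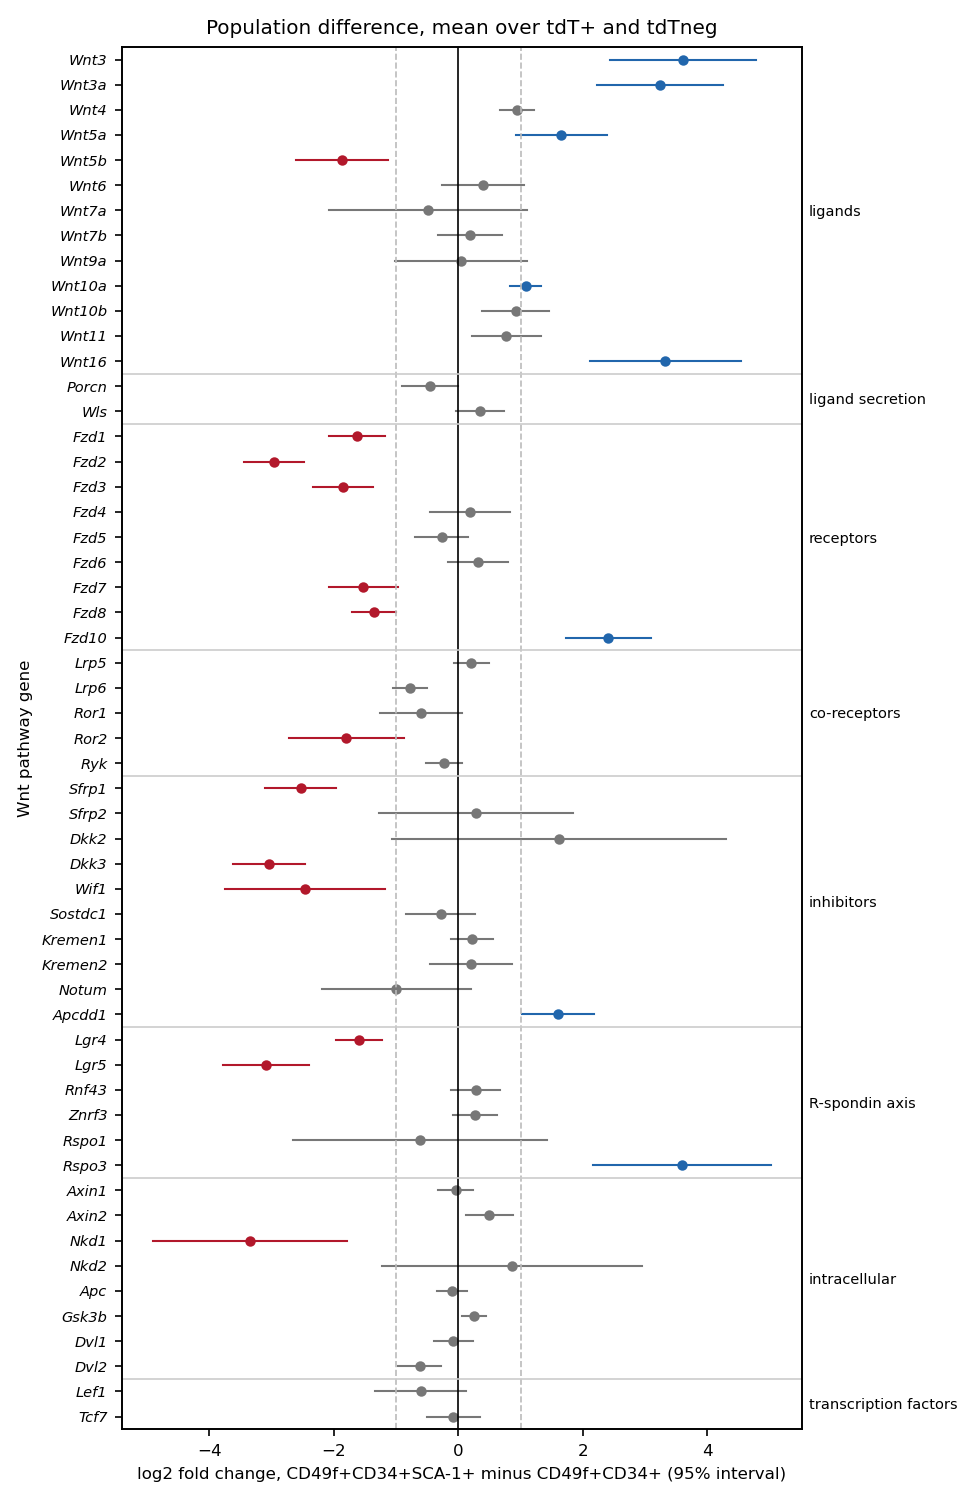
Log2 fold change of the 55 genes, positive where CD49f+CD34+SCA-1+ exceeded CD49f+CD34+ cells (horizontal axis; mean over tdT+ and tdTneg), ordered by role, with 95% intervals from edgeR's quasi-likelihood fit; blue, called higher; red, called lower; grey, not called; dashed lines, the fold threshold at log2 values of -1 and 1. Of the 8 genes called higher (background 4.77% of all genes) 5 are ligands, and of the 13 called lower (background 6.79%) 5 are Frizzled receptors.

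Among the 13 ligands, 5 were called higher, against 4.77% of all genes, and 1 lower, against 6.79%. Values below are normalized CPM in the order of the replicates, and differences are log2 fold changes ± SE with adjusted p-values from edgeR's quasi-likelihood test. Wnt3, a ligand of the beta-catenin branch, was at 10.6, 34.7 and 6.12 CPM in tdT+ and 6.901, 1.401 and 2.34 CPM in tdTneg CD49f+CD34+ cells, against 152, 123 and 146 CPM in tdT+ and 82.7 and 46.5 CPM in tdTneg CD49f+CD34+SCA-1+ cells. The groups did not overlap, and the largest value among CD49f+CD34+ libraries was that of the library labelled tdT+ replicate 2 (difference 3.61 ± 0.52, adjusted p = 0.00144; 4.12 without that library). Wnt3a, the ligand most used to activate the pathway in culture, was at 1.54, 3.21 and 0.992 CPM in tdT+ and 1.45, 0.581 and 1.17 CPM in tdTneg CD49f+CD34+ cells, against 30.03, 13.7 and 17.4 CPM in tdT+ and 13.7 and 4.398 CPM in tdTneg CD49f+CD34+SCA-1+ cells. Again every CD49f+CD34+SCA-1+ library lay above every CD49f+CD34+ library (3.24 ± 0.45, adjusted p = 0.0012). Wnt16, a further ligand of the family, was at 1.54, 9.69 and 1.16 CPM in tdT+ and 1.55, 0.714 and 1.37 CPM in tdTneg CD49f+CD34+ cells, against 31.04, 32.3 and 35.9 CPM in tdT+ and 20.3 and 10.3 CPM in tdTneg CD49f+CD34+SCA-1+ cells. It also separated the populations (3.33 ± 0.55, adjusted p = 0.00273), and without the library labelled replicate 2 of tdT+ CD49f+CD34+ cells, which held 9.69 CPM, its difference was 4.13. The order of Wnt3, Wnt3a and Wnt16 by fold is within their standard errors.

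Wnt10a, whose loss causes ectodermal dysplasia, was at 40.6, 55 and 52.7 CPM in tdT+ and 61.8, 62.3 and 51.9 CPM in tdTneg CD49f+CD34+ cells, against 157, 128 and 155 CPM in tdT+ and 84.2 and 92.9 CPM in tdTneg CD49f+CD34+SCA-1+ cells. Its difference was small in size and precise (1.08 ± 0.11, adjusted p = 3.24e-04), with the highest values in tdT+ CD49f+CD34+SCA-1+ cells. Wnt4, a ligand found in the basal epidermis, was at 61.3, 75.6 and 95 CPM in tdT+ and 91.1, 90.6 and 88.2 CPM in tdTneg CD49f+CD34+ cells, against 210.4, 240.0 and 192 CPM in tdT+ and 112 and 128 CPM in tdTneg CD49f+CD34+SCA-1+ cells. It did not overlap between the populations but remained below the fold threshold (0.94 ± 0.12, adjusted p = 7.90e-04), which it passed without tdT+ CD49f+CD34+ replicate 3 (1.03, adjusted p = 0.000606). Wnt10b, a ligand of hair follicle growth, was at 8.34, 8.14 and 12.01 CPM in tdT+ and 8.12, 4.94 and 5.51 CPM in tdTneg CD49f+CD34+ cells, against 17.5, 26.6 and 21.8 CPM in tdT+ and 12.4 and 6.83 CPM in tdTneg CD49f+CD34+SCA-1+ cells, and it too had an adjusted p under 0.05 with a fold below the threshold (0.92 ± 0.24, adjusted p = 0.0251). Wnt5a, the main ligand of the beta-catenin-independent branch, was at 5.85, 8.89 and 3.802 CPM in tdT+ and 6.16, 5.29 and 5.34 CPM in tdTneg CD49f+CD34+ cells, against 30.2, 13.6 and 13.9 CPM in tdT+ and 24.7 and 10.8 CPM in tdTneg CD49f+CD34+SCA-1+ cells. It was called higher (1.65 ± 0.33, adjusted p = 0.00732) but not without tdTneg CD49f+CD34+SCA-1+ replicate 1 (1.29, adjusted p = 0.0565). Wnt5b, its closest relative, went the other way, at 13.2, 6.21 and 13.3 CPM in tdT+ and 15.5, 27.5 and 19.4 CPM in tdTneg CD49f+CD34+ cells, against 2.72, 3.29 and 3.87 CPM in tdT+ and 2.91 and 7.46 CPM in tdTneg CD49f+CD34+SCA-1+ cells. The ranges of the populations met at 1 point, where the tdTneg CD49f+CD34+SCA-1+ replicate 2 exceeded the library labelled replicate 2 of tdT+ CD49f+CD34+ cells (-1.87 ± 0.33, adjusted p = 0.00423).

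Wnt7b, a ligand known from the bulge, was at 74.1, 73.6 and 180.1 CPM in tdT+ and 71.5, 68.4 and 82.3 CPM in tdTneg CD49f+CD34+ cells, against 127, 113 and 97.3 CPM in tdT+ and 86.9 and 100.1 CPM in tdTneg CD49f+CD34+SCA-1+ cells. The ranges overlapped, and the difference was 0.19 with a 95% interval of -0.33 to 0.70. The 4 remaining ligands, none called in any comparison, were low: Wnt6 at 4.12 to 12.6 CPM over the 11 libraries, Wnt7a at 0.0838 to 4.298, Wnt9a at 0.331 to 6.59 and Wnt11 at 2.91 to 13.5. Wnt11, of which 8.80% of the exon length overlaps a gene on the other strand, had the smallest adjusted p of these (0.77, adjusted p = 0.0545). Since the library kit does not mark strand, reads of such a pair cannot be told apart.

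Scaled to exon length (CPM per kb, mean ± SD), Wnt10a, Wnt4, Wnt3 and Wnt7b were the leading ligands of tdT+ CD49f+CD34+SCA-1+ cells, at 59.3 ± 6.54, 51.03 ± 5.82, 45.7 ± 4.94 and 22.9 ± 2.99 (n = 3). The SDs of the first and second overlapped, as did those of the second and the third, and Wnt7b stood apart below them. In tdTneg CD49f+CD34+SCA-1+ cells the order of means was the same at lower levels, from 35.9 ± 2.49 for Wnt10a to 19.1 ± 1.91 for Wnt7b (n = 2). There the SD of Wnt3 (21.0 ± 8.30) overlapped those of Wnt4 (28.7 ± 2.69) and Wnt7b, so the order below Wnt10a is not settled. In CD49f+CD34+ cells Wnt7b, Wnt10a and Wnt4 led, at 22.3 ± 12.5, 20.02 ± 3.14 and 18.4 ± 4.04 in tdT+ (n = 3) and 15.1 ± 1.49, 23.8 ± 2.37 and 21.5 ± 0.364 in tdTneg cells (n = 3), while Wnt3 reached 5.56 ± 4.99 and 1.15 ± 0.956. Summed over the 13 ligands, the level per kb was 202 to 226 in tdT+ and 121 to 129 in tdTneg CD49f+CD34+SCA-1+ libraries, and 65.0 to 99.5 in the 6 CD49f+CD34+ libraries, so that the populations did not overlap.

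**Figure D2:**
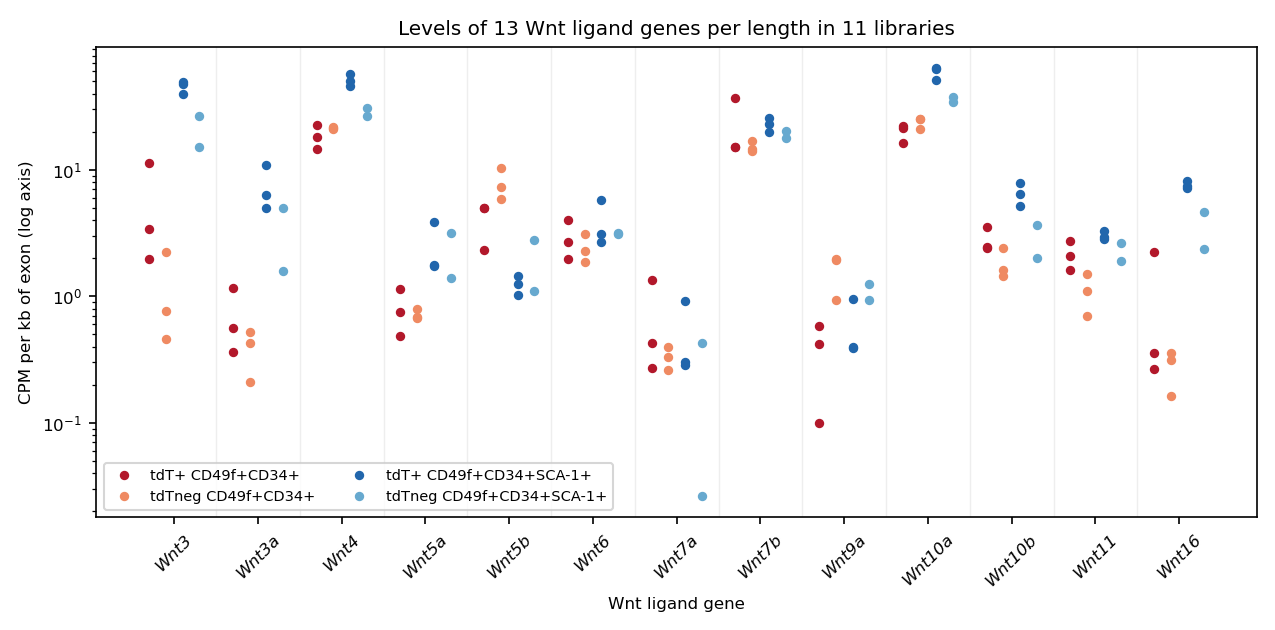
CPM per kb of exon (log axis) of the 13 ligand genes in each of the 11 libraries, coloured by group. Wnt10a, Wnt4 and Wnt7b were high in all 4 groups, and Wnt3, Wnt3a and Wnt16 were higher in CD49f+CD34+SCA-1+ than in CD49f+CD34+ cells, with summed ligand levels of 121 or more there and 99.5 or less in CD49f+CD34+ cells.

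Several Wnt genes stand beside another Wnt gene in the mouse genome (GRCm38, GENCODE M21 annotation) within 100000 bp. On chr11 Wnt3 (chr11:103774150-103817957) lies 24328 bp from Wnt9b, which was tested but is outside the 55 genes (difference 0.02, adjusted p = 0.996). Wnt3a (chr11:59248033-59290752) lies 16175 bp from Wnt9a, whose difference was 0.04 with an interval of -1.02 to 1.11. On chr1 Wnt10a (chr1:74791516-74804179) lies 6193 bp from Wnt6, whose difference was 0.40 with an interval of -0.26 to 1.06. On chr15 Wnt10b (chr15:98770712-98778150) lies 11706 bp from Wnt1, which was left out by the filter on low counts and not tested. Wnt10b was not called on the mean over tdT, to which the differences given here belong, but was called within tdT+ cells. In the other 3 pairs 1 gene was called and the other was not. The difference within a pair was not tested.

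Secretion of ligands showed no call. Porcn ranged from 12.2 to 37.8 CPM and Wls, which carries all lipid-modified Wnt proteins, from 147 to 329 CPM over the 11 libraries. Their population differences were -0.45 (interval -0.90 to -0.00) and 0.35 (-0.03 to 0.73).

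Of the 9 Frizzled receptors, 5 were called lower in CD49f+CD34+SCA-1+ cells, against 6.79% of all genes, and 1 higher, against 4.77%. Fzd2 was at 245, 175 and 342 CPM in tdT+ and 419, 330.4 and 371 CPM in tdTneg CD49f+CD34+ cells, against 20.3, 24.3 and 19.3 CPM in tdT+ and 54.1 and 92.6 CPM in tdTneg CD49f+CD34+SCA-1+ cells. It was the most strongly lowered receptor (-2.96 ± 0.22, adjusted p = 1.21e-04), without overlap and with the lowest values in tdT+ CD49f+CD34+SCA-1+ cells. Fzd7, the receptor with the highest mean level per kb in CD49f+CD34+ cells (90.8 ± 38.5 in tdT+ and 104 ± 12.9 in tdTneg cells, within 1 SD of Fzd2), was at 362, 267 and 605 CPM in tdT+ and 483, 410.1 and 525 CPM in tdTneg CD49f+CD34+ cells, against 86.7, 102 and 102 CPM in tdT+ and 159.8 and 325 CPM in tdTneg CD49f+CD34+SCA-1+ cells. The tdTneg CD49f+CD34+SCA-1+ replicate 2 reached into the range of the other population, and the difference was -1.53 ± 0.25, adjusted p = 0.00252. Fzd1 was at 157, 119 and 248 CPM in tdT+ and 202, 168 and 201 CPM in tdTneg CD49f+CD34+ cells, against 40.8, 39.1 and 44.6 CPM in tdT+ and 65.3 and 104 CPM in tdTneg CD49f+CD34+SCA-1+ cells, with no overlap (-1.62 ± 0.20, adjusted p = 6.85e-04). Fzd3, a receptor with a role in planar cell polarity, was at 59.1, 82.4 and 96.3 CPM in tdT+ and 111, 64.4 and 136 CPM in tdTneg CD49f+CD34+ cells, against 16.8, 19.2 and 15.1 CPM in tdT+ and 31.99 and 41.6 CPM in tdTneg CD49f+CD34+SCA-1+ cells. Fzd8 was at 22.8, 27.8 and 25.4 CPM in tdT+ and 32.5, 30.6 and 29.9 CPM in tdTneg CD49f+CD34+ cells, against 8.42, 6.87 and 10.8 CPM in tdT+ and 12.2 and 15.3 CPM in tdTneg CD49f+CD34+SCA-1+ cells. Both separated the populations (Fzd3 -1.86 ± 0.21, adjusted p = 4.94e-04; Fzd8 -1.36 ± 0.16, adjusted p = 5.06e-04).

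Fzd10 moved against the other called receptors, at 10.7, 23.8 and 19.5 CPM in tdT+ and 11.3, 5.66 and 4.39 CPM in tdTneg CD49f+CD34+ cells, against 111, 64.3 and 88.9 CPM in tdT+ and 50.9 and 31.5 CPM in tdTneg CD49f+CD34+SCA-1+ cells. Its populations did not overlap (2.41 ± 0.31, adjusted p = 7.72e-04; 2.54 without the library labelled replicate 2 of tdT+ CD49f+CD34+ cells). Fzd10 was the receptor with the highest level per kb in tdT+ CD49f+CD34+SCA-1+ cells (27.1 ± 7.26), its SD overlapping that of Fzd7 (21.4 ± 1.97), whereas in tdT+ CD49f+CD34+ cells it was at 5.55 ± 2.05. Fzd5, at 17.6 to 34.3 CPM, and Fzd6, at 4.55 to 8.01 CPM, were not called, with intervals of -0.70 to 0.16 and -0.16 to 0.80 on the log2 scale. Fzd4 was not called on the mean over tdT (0.18, interval -0.46 to 0.82) and is described with the tdT comparison.

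Among the 5 co-receptors only Ror2, a receptor of Wnt5a signaling, was called, against 11.6% of all genes. It was at 10.8, 6.32 and 13.01 CPM in tdT+ and 19.8, 23.5 and 21.2 CPM in tdTneg CD49f+CD34+ cells, against 1.52, 5.45 and 1.497 CPM in tdT+ and 4.11 and 8.63 CPM in tdTneg CD49f+CD34+SCA-1+ cells, and the ranges of the populations overlapped (-1.80 ± 0.41, adjusted p = 0.0147). The call was lost without tdTneg CD49f+CD34+SCA-1+ replicate 1 (-1.58, adjusted p = 0.0914). Lrp6, which binds ligand together with Frizzled receptors, had an adjusted p under 0.05 and no overlap at a smaller fold (-0.77 ± 0.12, adjusted p = 0.0024), with 83.4 to 251 CPM over the 11 libraries. Lrp5 (128 to 259 CPM), Ror1 (9.56 to 30.97 CPM) and Ryk (110.3 to 188 CPM) were not called, with intervals of -0.08 to 0.49, -1.25 to 0.07 and -0.53 to 0.06.

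Of the 10 inhibitors, 3 were called lower, against 6.79% of all genes, and 1 higher, against 4.77%. Sfrp1, a decoy that binds Wnt ligands, was at 650.4, 519 and 780.3 CPM in tdT+ and 1494, 1906 and 1673 CPM in tdTneg CD49f+CD34+ cells, against 111, 112 and 66.5 CPM in tdT+ and 212 and 469.6 CPM in tdTneg CD49f+CD34+SCA-1+ cells. It was the inhibitor with the highest level per kb in tdTneg CD49f+CD34+ cells (387 ± 47.2), and the populations did not overlap (-2.53 ± 0.25, adjusted p = 2.86e-04). Dkk3, a Dickkopf family member known from the bulge, was at 306, 342 and 468 CPM in tdT+ and 554, 525 and 671 CPM in tdTneg CD49f+CD34+ cells, against 22.5, 36.97 and 24.9 CPM in tdT+ and 70.2 and 157 CPM in tdTneg CD49f+CD34+SCA-1+ cells. Every CD49f+CD34+SCA-1+ library lay below every CD49f+CD34+ library (-3.04 ± 0.26, adjusted p = 1.37e-04). Wif1, another secreted ligand-binding inhibitor, was at 58.4, 29.03 and 136 CPM in tdT+ and 46.8, 38.6 and 77.99 CPM in tdTneg CD49f+CD34+ cells, against 4.61, 16.6 and 2.27 CPM in tdT+ and 13.3 and 21.1 CPM in tdTneg CD49f+CD34+SCA-1+ cells. It was lower without overlap (-2.46 ± 0.58, adjusted p = 0.016) but varied widely among replicates, and the call was lost without tdTneg CD49f+CD34+SCA-1+ replicate 1 (adjusted p = 0.101) or replicate 2 (adjusted p = 0.0643).

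Apcdd1, a membrane inhibitor that is itself a target of the pathway, was the inhibitor called higher, at 52.4, 40.8 and 119.6 CPM in tdT+ and 24.8, 18 and 22.4 CPM in tdTneg CD49f+CD34+ cells, against 161, 140.4 and 210.0 CPM in tdT+ and 86.7 and 81.6 CPM in tdTneg CD49f+CD34+SCA-1+ cells. The tdT+ CD49f+CD34+ replicate 3 lay within the range of CD49f+CD34+SCA-1+ libraries, so the populations overlapped (1.61 ± 0.26, adjusted p = 0.00246). Sostdc1 (77.8 to 264 CPM) and Kremen1 (108 to 182 CPM) were well expressed and not called, with intervals of -0.84 to 0.27 and -0.12 to 0.56. Kremen2 ranged from 3.23 to 7.47 CPM, Sfrp2 from 0.0799 to 5.61 CPM, Notum, of which 38.1% of the exon length overlaps another gene, from 0.227 to 4.18 CPM and Dkk2 from 0 to 9.49 CPM, and none was called. Summed per kb over the 10 inhibitors, levels were 153 to 267 in CD49f+CD34+SCA-1+ and 299.9 to 784 in CD49f+CD34+ libraries.

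Of 6 genes in the R-spondin axis, both Lgr receptors were called lower, against 6.79% of all genes, and 1 R-spondin higher, against 4.77%. Lgr5, a marker of cycling stem cells of the lower bulge and hair germ, was at 173, 101 and 204 CPM in tdT+ and 359, 217 and 387 CPM in tdTneg CD49f+CD34+ cells, against 9.09, 19.02 and 7.74 CPM in tdT+ and 56.6 and 61.6 CPM in tdTneg CD49f+CD34+SCA-1+ cells. No library of the populations overlapped (-3.09 ± 0.31, adjusted p = 2.87e-04). Lgr4, its broadly expressed relative, was at 237, 305 and 377 CPM in tdT+ and 347, 311 and 406 CPM in tdTneg CD49f+CD34+ cells, against 93.3, 87.9 and 73.5 CPM in tdT+ and 113 and 167 CPM in tdTneg CD49f+CD34+SCA-1+ cells. It showed the same order of populations at a smaller difference (-1.60 ± 0.16, adjusted p = 3.24e-04). Rspo3, a secreted R-spondin, was low in all libraries, at 0.317, 2.95 and 0.386 CPM in tdT+ and 0.682, 0.3700 and 0.244 CPM in tdTneg CD49f+CD34+ cells, against 12.9, 9.26 and 10.3 CPM in tdT+ and 10.7 and 3.56 CPM in tdTneg CD49f+CD34+SCA-1+ cells. It was higher without overlap (3.59 ± 0.64, adjusted p = 0.00419; 4.48 without the library labelled replicate 2 of tdT+ CD49f+CD34+ cells), and 13.1% of its exon length overlaps another gene. Rnf43 (39.9 to 93.2 CPM) and Znrf3 (39.4 to 81.7 CPM), the ligases that remove Frizzled receptors, were not called, with intervals of -0.11 to 0.67 and -0.09 to 0.62, and Rspo1 stayed at 0 to 2.54 CPM.

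Inside the cell, 1 of 8 components was called, against 11.6% of all genes. Nkd1, which binds Dishevelled and is induced by the pathway, was at 14.6, 3.96 and 13.4 CPM in tdT+ and 9.34, 6.69 and 11.9 CPM in tdTneg CD49f+CD34+ cells, against 0.426, 0 and 0.723 CPM in tdT+ and 2.06 and 2.81 CPM in tdTneg CD49f+CD34+SCA-1+ cells. It was lower without overlap (-3.35 ± 0.70, adjusted p = 0.00914), with under 1 CPM in each tdT+ CD49f+CD34+SCA-1+ library, and the call was lost without tdTneg CD49f+CD34+SCA-1+ replicate 1 (adjusted p = 0.0748) or replicate 2 (adjusted p = 0.0569). Axin2, the most used reporter of pathway activity, was at 41.6, 36.3 and 54.4 CPM in tdT+ and 42.2, 32.5 and 40.3 CPM in tdTneg CD49f+CD34+ cells, against 96.5, 58.4 and 97.5 CPM in tdT+ and 44.1 and 35.7 CPM in tdTneg CD49f+CD34+SCA-1+ cells. Its populations overlapped and the difference was 0.50 ± 0.17, adjusted p = 0.0681. Within tdT+ cells its adjusted p was 0.0271 at a difference of 0.93, under the fold threshold, and within tdTneg cells the difference was 0.06 (interval -0.51 to 0.63). Dvl2 ranged from 27.8 to 66.3 CPM and was lower at a fold under the threshold (-0.62 ± 0.15, adjusted p = 0.0204; 19.7% of its exon length overlaps another gene). Axin1, Apc, Gsk3b and Dvl1 ranged between 69.3 and 201 CPM and were not called, with differences of -0.04, -0.10, 0.25 and -0.09 in that order, and Nkd2 ranged from 0 to 11.4 CPM.

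Neither transcription factor was called. Lef1, a marker of the hair germ and of T cells, was at 3.94, 2.41 and 3.58 CPM in tdT+ and 5.33, 5.39 and 5.32 CPM in tdTneg CD49f+CD34+ cells, against 1.68, 1.93 and 0.671 CPM in tdT+ and 4.81 and 5.91 CPM in tdTneg CD49f+CD34+SCA-1+ cells. Tcf7 was at 38.2, 24.6 and 40.7 CPM in tdT+ and 42.9, 48.8 and 50.3 CPM in tdTneg CD49f+CD34+ cells, against 36.3, 51.2 and 42.7 CPM in tdT+ and 23.99 and 43.1 CPM in tdTneg CD49f+CD34+SCA-1+ cells. Their differences were -0.60 (interval -1.34 to 0.13) and -0.08 (-0.51 to 0.34), and that of Tcf7 changed sign without tdTneg CD49f+CD34+SCA-1+ replicate 1 (0.09). Both genes are also expressed in T cells, whose 13 markers were all called higher in CD49f+CD34+SCA-1+ cells, at a summed 660 to 1522 CPM in tdT+ and 227 and 232 CPM in tdTneg CD49f+CD34+SCA-1+ libraries against 30.9 to 139 CPM in CD49f+CD34+ libraries. The part of T cells in these levels was not tested.

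Of 7 feedback genes, known targets that restrain the pathway (Axin2, Nkd1, Nkd2, Notum, Rnf43, Znrf3 and Apcdd1), 1 was called higher and 1 lower (14.3% each, against 4.77% and 6.79% of all genes). Among 9 further known targets, 7 were tested and 1 was called, the receptor gene Tnfrsf19 (2.73, adjusted p = 0.0011), higher (14.3%, against 4.77% of all genes). Of 66 other genes of the pathway, 58 were tested, 2 were called higher (3.45%, against 4.77% of all genes) and 7 lower (12.1%, against 6.79%). The lower ones included the repressor Tcf7l1 (-2.03, adjusted p = 0.000206), also a bulge marker, and its relative Tcf7l2 (-1.08, adjusted p = 0.0016). Shisa2, which retains Frizzled receptors in the endoplasmic reticulum, was at a difference of -3.17 (adjusted p = 2.83e-04). Fzd9, Apc2, Dact2 and Dact3 were lower as well, and Lrp4 (1.38) and the polarity gene Prickle1 (1.27) were higher. Ctnnb1, which encodes beta-catenin, was not called (-0.26, adjusted p = 0.145).

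**Figure D3:**
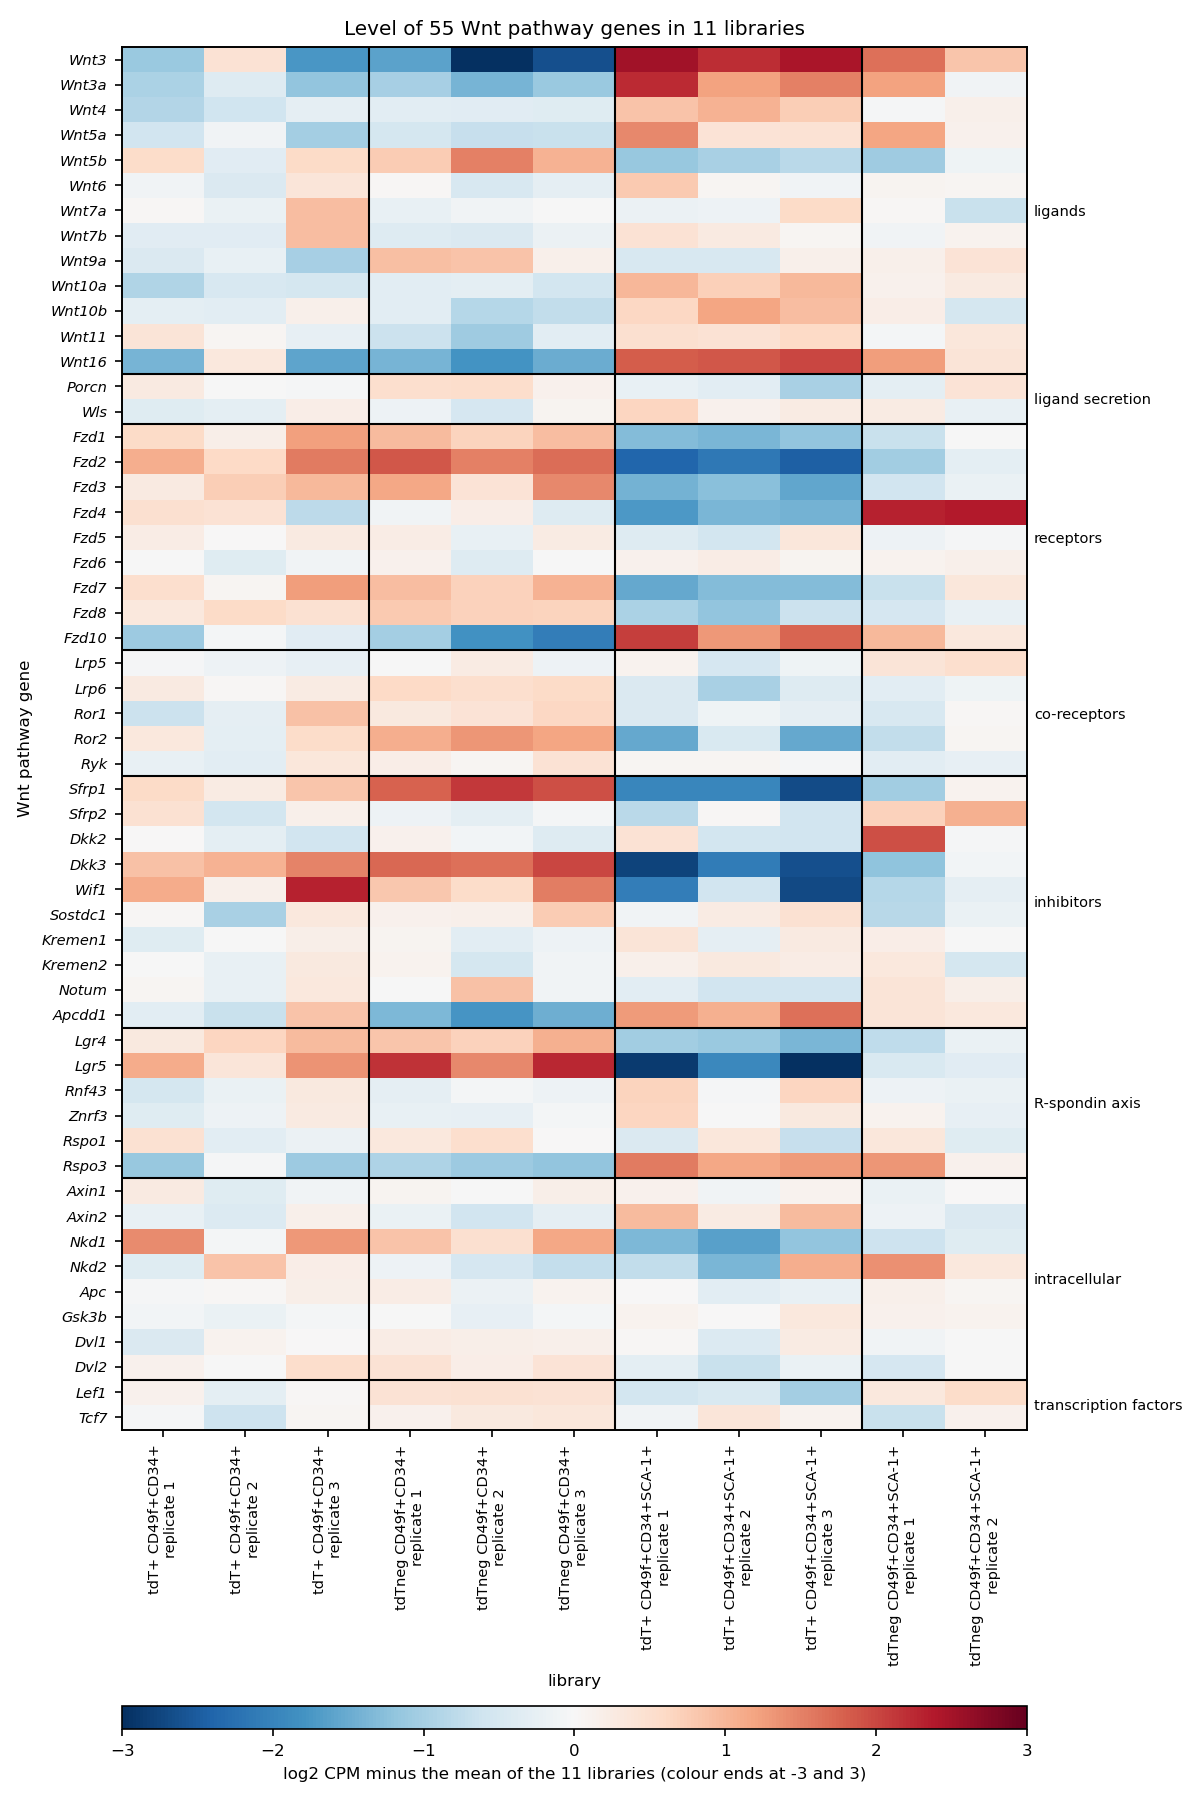
Level of the 55 genes (rows, grouped by role) in the 11 libraries (columns, grouped by sorted population), as log2 CPM minus the mean over the 11 libraries, with colours ending at -3 and 3. Most called genes split the 6 CD49f+CD34+ from the 5 CD49f+CD34+SCA-1+ columns, and Fzd4 separates the 2 tdTneg CD49f+CD34+SCA-1+ libraries from all others.

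The comparison of populations was then made within tdT+ and within tdTneg cells. These comparisons share no library but are not independent. Libraries of 1 replicate number were read as sharing mice, and 1 fit over all 11 libraries gave the spread used in both. Within tdT+ cells 23 of the 55 genes were called, against 8.45% of all genes, 10 higher (background 2.91%) and 13 lower (background 5.54%). Within tdTneg cells 16 were called, against 4.74% of all genes, 7 higher (background 3.29%) and 9 lower (background 1.45%). All 16 were also among the 23 called within tdT+ cells (69.6% of the 23), and 15 of the 16 had the same direction, the exception being Fzd4. Over all genes, 53.7% of those called within tdTneg cells were also called within tdT+ cells (30.1% of the latter), and 96.3% of these had the same direction. The sign was the same in both for 42 of the 55 genes and for 66.3% of all genes. Markers of other cells moved in both comparisons. Within tdT+ cells 12 of 13 T cell markers were called higher, and 1 of 6 Langerhans cell, 1 of 5 dermal papilla, 2 of 6 melanocyte and 5 of 7 bulge markers lower. Within tdTneg cells 10 of 13 T cell, 3 of 6 Langerhans cell, 2 of 8 endothelial and 1 of 5 dermal papilla markers were called higher, as were 2 of 4 suprabasal IFE markers, and 1 of 6 melanocyte and 2 of 7 bulge markers lower. In tdTneg cells endothelial markers summed to 1833 and 1931 against 39.8 to 118 CPM, dermal papilla markers to 143 and 201 against 13.6 to 34.9 CPM and Langerhans cell markers to 672 and 840 against 130 to 245 CPM, and their part in these calls was not tested. The ranges of the compared libraries did not overlap in 33 of the 55 genes within tdT+ cells (30.4% of all genes) and in 36 within tdTneg cells (46.3% of all genes), the called genes among them. Wnt4 (1.47 ± 0.17, adjusted p = 7.17e-04) and Wnt10b (1.21 ± 0.33, adjusted p = 0.0382) were called higher within tdT+ cells, and within tdTneg cells their differences were 0.42 and 0.63. For Wnt10a the differences were 1.57 and 0.59, and for Lgr5 -3.74 and -2.44, but the test of the difference between tdT states passed for neither (adjusted p = 0.105 and 0.377).

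These counts depended on single libraries. Within tdT+ cells 21 of the 23 calls held without the library labelled replicate 2 of tdT+ CD49f+CD34+ cells, those lost being Wnt10b and Apcdd1, and 15 genes were called without tdT+ CD49f+CD34+SCA-1+ replicate 1 or without replicate 3. Calls of 15 genes held whichever library was left out, among them Wnt3a, Wnt4, Wnt10a, Fzd2, Fzd10, Sfrp1, Dkk3 and Lgr5. Within tdTneg cells 10 of the 16 calls held with the replicate block, which ended the calls of Wnt3a (adjusted p = 0.0518), Wnt5b (0.0774), Wnt16 (0.0699), Fzd1 (0.0787), Fzd3 (0.0535) and Rspo3 (0.07). The block also ended those of Wnt10b (adjusted p = 0.0528) and Rspo3 (0.051) within tdT+ cells. Leaving out 1 library within tdTneg cells left 0 calls without tdTneg CD49f+CD34+SCA-1+ replicate 1, 8 without replicate 2, 9 without tdTneg CD49f+CD34+ replicate 1 and 3 without replicate 3, so no single tdTneg call held in every such fit.

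The last comparison set tdT+ against tdTneg cells of the same population. In CD49f+CD34+ cells 0 of the 55 genes were called by edgeR, against 0.00985% of all genes, 9 had an unadjusted p under 0.05 (8.42% of all genes) and 3 were called by DESeq2 (1.59% of all genes). Sfrp1 was at 650.4, 519 and 780.3 CPM in tdT+ and 1494, 1906 and 1673 CPM in tdTneg cells here, with no overlap between the groups, a difference of -1.38 and an interval of -2.08 to -0.68 (adjusted p = 0.229). In all, 14 of the 55 genes did not overlap here, against 16% of all genes. Apcdd1 and Lgr5 likewise did not overlap, at differences of 1.71 (0.92 to 2.50) and -1.01 (-1.83 to -0.19), neither passing adjustment (0.198 and 0.502). For 23 of the 55 genes the 95% interval lay within 1 log2 unit on either side of 0. The library labelled tdT+ replicate 2, which may go against its label by the row outside Ensembl genes, enters this comparison. Its T cell markers (139 CPM in sum) and Sfrp1 (519 CPM) lay on the side of the other tdT+ libraries. Whether its label is right was not tested. Without this library 0 of the 55 genes were called by edgeR, against 0% of all genes, and 6 had an unadjusted p under 0.05, against 7.36% of all genes. The differences were then -1.24 (interval -2.06 to -0.42) for Sfrp1, 1.98 (1.27 to 2.695) for Apcdd1 and -0.77 (-1.63 to 0.10) for Lgr5, which was not among the 6. Those 6 also held Wnt9a, a gene of low counts (-2.61, interval -4.39 to -0.84), Wnt7b (0.78), Wnt11 (0.99) and Fzd10 (1.08). Among markers of other cells, 11 of 13 T cell markers (99.3 to 139 against 30.9 to 48.4 CPM in sum), 3 of 4 suprabasal IFE markers (1532 to 4003 against 480.3 to 1645 CPM) and 3 of 6 Langerhans cell markers (124 to 449 against 130 to 245 CPM) were higher at an unadjusted p under 0.05, and 1 Langerhans cell marker was lower, none of them called. The summed ranges overlapped for the IFE and Langerhans cell markers. Their part in these differences was not tested.

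In CD49f+CD34+SCA-1+ cells 5 of the 55 genes were called, against 2.31% of all genes, all 5 lower in tdT+ cells (background 2.06%) and 0 higher by edgeR (background 0.251%; 7 were higher at an unadjusted p under 0.05, against 5.17% of all genes, and 2 were called higher by DESeq2, against 0.965%). At that unadjusted p 15 genes were lower, against 9.42% of all genes, and DESeq2 called 10 lower, against 4.47%. The 5 genes called by edgeR were the receptors Fzd4 and Fzd2, the inhibitors Sfrp1 and Dkk3 and the R-spondin receptor Lgr5. None of them overlapped between the groups, and 29 of the 55 genes did not, against 33% of all genes. The differences were -4.64 ± 0.46, adjusted p = 0.0011 for Fzd4, -1.78 ± 0.29, adjusted p = 0.0115 for Fzd2, -2.01 ± 0.34, adjusted p = 0.0136 for Dkk3, -2.31 ± 0.41, adjusted p = 0.0178 for Lgr5 and -1.82 ± 0.34, adjusted p = 0.0236 for Sfrp1. With the replicate block Sfrp1 was not called (adjusted p = 0.053). Only Fzd4 was called whichever library was left out. Fzd2, Dkk3, Sfrp1 and Lgr5 were all lost without tdT+ CD49f+CD34+SCA-1+ replicate 1 (adjusted p = 0.0511, 0.0575, 0.0605 and 0.0738), without replicate 3 (0.0541, 0.0634, 0.0799 and 0.0682) and without tdTneg CD49f+CD34+SCA-1+ replicate 2 (0.114, 0.134, 0.283 and 0.108), and Lgr5 also without tdTneg replicate 1 (0.0651). Without tdTneg CD49f+CD34+SCA-1+ replicate 2 the differences were -1.39 for Fzd2, -1.37 for Dkk3, -1.18 for Sfrp1 and -2.297 for Lgr5. Wnt4 was higher in tdT+ cells at a fold under the threshold (0.83 ± 0.19, adjusted p = 0.0472). Cd34 mRNA moved with the called genes (-3.68), and 2 of 7 bulge markers were called lower in tdT+ cells. At an unadjusted p under 0.05, 5 of the 7 bulge markers were lower and 0 higher. Their median log2 fold change was -1.21, and 2 of the 7 had a positive difference. The summed bulge markers overlapped, at 8406 to 12595 CPM in tdT+ and 9881 and 11230.1 CPM in tdTneg libraries, and markers of other cells moved as well. Of 13 T cell markers 7 were called higher (660 to 1522 against 227 and 232 CPM in sum). Of 8 endothelial markers 2 were called lower (34.9 to 72.2 against 1833 and 1931 CPM), as were 1 of 5 dermal papilla markers (6.18 to 13.8 against 143 and 201 CPM) and 1 of 6 Langerhans cell markers (268 to 385 against 672 and 840 CPM). The part of these cells in the 5 calls was not tested.

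**Figure D4:**
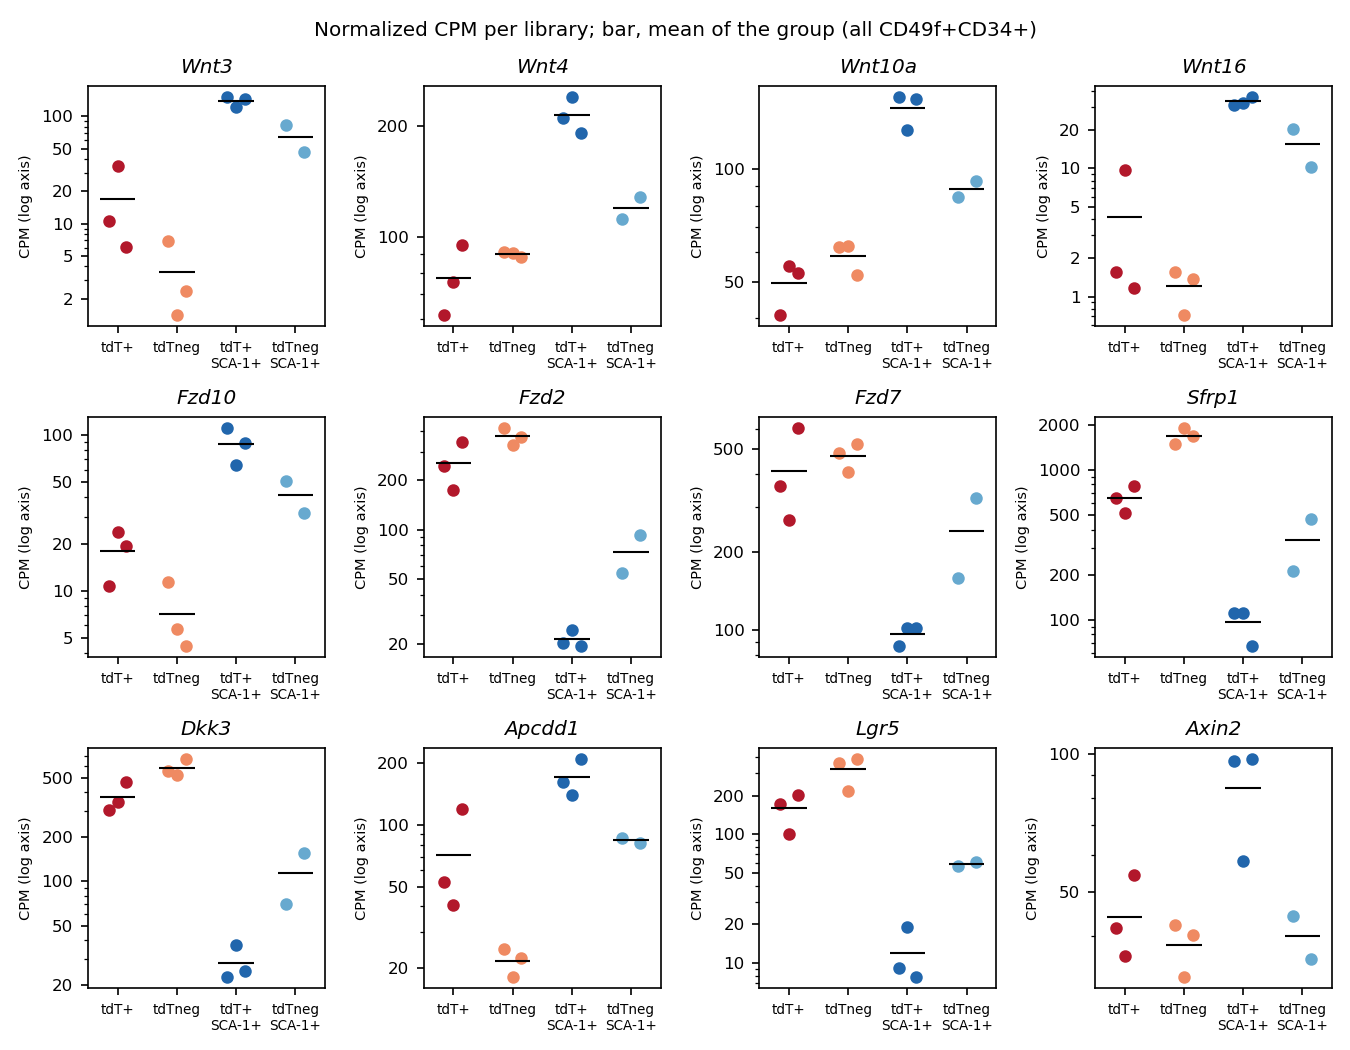
Normalized CPM (log axis) of 12 of the 55 genes in every library of the 4 groups, all CD49f+CD34+; points are libraries and bars are group means. The 3 tdT+ SCA-1+ points lie farthest from the CD49f+CD34+ points for Wnt3, Wnt4, Wnt10a, Wnt16, Fzd10, Fzd2, Sfrp1, Dkk3 and Lgr5, and the tdTneg SCA-1+ points lie between them.

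Fzd4, a receptor for Wnt ligands and for norrin that is known from endothelial cells, was the 1 gene of the 55 for which the tdT difference itself differed between the populations (-4.91 ± 0.59, adjusted p = 0.00988; 0.389% of all genes passed this test, and DESeq2 called 3 of the 55, against 3.76% of all genes). It was at 15.9, 15.3 and 5.400 CPM in tdT+ and 9.86, 12.8 and 7.76 CPM in tdTneg CD49f+CD34+ cells, against 1.87, 2.95 and 2.79 CPM in tdT+ and 61.5 and 64.7 CPM in tdTneg CD49f+CD34+SCA-1+ cells. The tdTneg CD49f+CD34+SCA-1+ libraries were the highest of all and the tdT+ ones the lowest, so that the population difference was -2.27 ± 0.40, adjusted p = 0.00647 within tdT+ and 2.64 ± 0.42, adjusted p = 0.0104 within tdTneg cells. The contrast between the populations lost its call without tdTneg CD49f+CD34+SCA-1+ replicate 2 (-4.91, adjusted p = 0.068). The 8 endothelial markers moved with it: they summed to 34.9 to 72.2 CPM in tdT+ and 1833 and 1931 CPM in tdTneg CD49f+CD34+SCA-1+ libraries, 39.8 to 118 CPM in tdTneg and 6.28 to 485 CPM in tdT+ CD49f+CD34+ libraries. The defining marker Cdh5 was at 364 and 421 CPM in the tdTneg CD49f+CD34+SCA-1+ libraries and at 7.19 to 17.0 CPM in the tdT+ ones, and all 8 markers had an unadjusted p under 0.05 for the tdT difference there. The part of endothelial RNA in the level of Fzd4 was not tested.

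**Figure D5:**
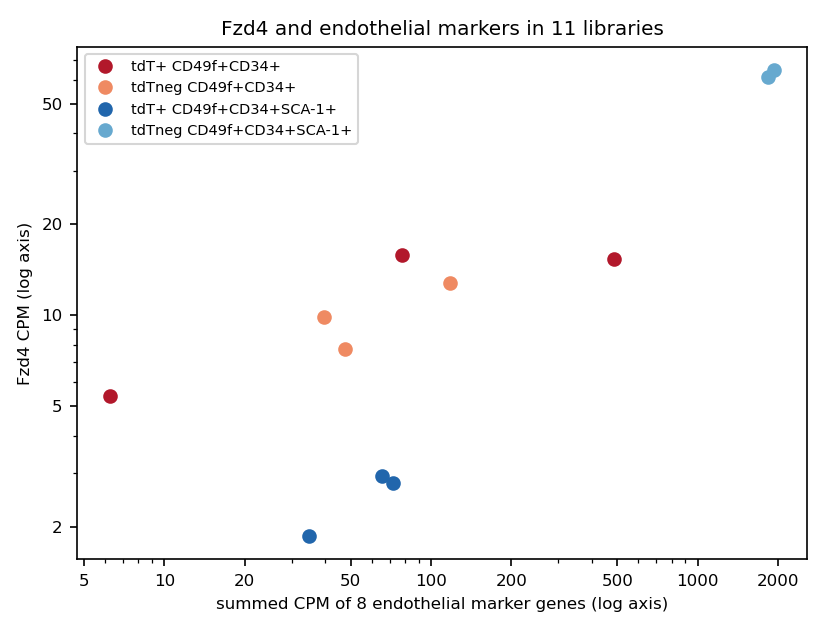
Fzd4 CPM against the summed CPM of 8 endothelial marker genes (both log axes) in the 11 libraries, coloured by group. The 2 tdTneg CD49f+CD34+SCA-1+ libraries stand apart at 61.5 and 64.7 CPM of Fzd4 and 1833 and 1931 CPM of endothelial markers, and the 3 tdT+ CD49f+CD34+SCA-1+ libraries have the lowest Fzd4 levels, under 3 CPM.

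Since several of the 55 genes are known targets of the pathway, the 250 bases before their annotated starts were searched for the binding word of Tcf and Lef factors, CTTTG followed by 2 bases that are each A or T, on either strand. The RefSeq promoter table of GRCm38.p6 held 34 of the 55 genes with 42 starts, of which 4 (9.52%) had such a word, against 14.8% of all 32851 promoters. The 4 windows are printed because they are all that this search found among the 55 genes. They belong to Fzd7 and Wnt5b, both called lower between the populations, and to Lef1 and Wnt11, which were not called, and for Wnt5b and Lef1 the start is one inside the gene. Each is read 5′ to 3′ on the strand of its gene, with the word in capitals, which for Fzd7, Lef1 and Wnt11 appears as its reverse complement.
Fzd7 (chr1:59481993-59482047, plus strand): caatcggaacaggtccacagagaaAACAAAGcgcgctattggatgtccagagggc
Wnt5b (chr6:119449427-119449481, minus strand): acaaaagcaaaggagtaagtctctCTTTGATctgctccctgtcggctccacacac
Lef1 (chr3:131156123-131156177, plus strand): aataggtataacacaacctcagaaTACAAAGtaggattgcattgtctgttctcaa
Wnt11 (chr7:98835037-98835091, plus strand): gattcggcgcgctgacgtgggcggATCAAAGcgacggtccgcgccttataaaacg
The words lie 130 bases before the start of Fzd7, 71 before that of Wnt5b, 147 before that of Lef1 and 51 before that of Wnt11. This RefSeq start of Fzd7 lies before the start of the gene in the GENCODE annotation (chr1:59482424). A match describes the letters only, and no window overlaps an annotated exon.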

How the data were processed

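Gene counts of 11 libraries were deposited by the authors as 1 table per library of raw counts per Ensembl 96 gene. The methods and submitters' processing notes name bcl2fastq 2.20.0.422, STAR and featureCounts on mm10, with a kit that does not mark strand, and the strand setting is not given in the sources used here. The 55 members and all lists were chosen with earlier results of these data known. Counts were fitted in edgeR 4.0.16 (R 4.3.3) with TMM scaling, filterByExpr and 1 mean per group over all 11 libraries, and contrasts were tested with the quasi-likelihood F-test. A call needed a Benjamini-Hochberg adjusted p under 0.05 over 20307 genes and an absolute log2 fold change over 1. SE is the log2 fold change divided by the root of F, and intervals are 95% intervals of the fit. The 1 row outside Ensembl genes was kept out of totals and tests.

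Values in every library are given for members called in any comparison (24 of 55) and for 12 members of textbook interest in skin, of which 8 are also called, 28 in all, and the others are given by range. Groups and replicate numbers came from the sample labels. The methods describe 3 biological replicates in all, each of 2 mice, from which the populations were sorted, so libraries of 1 number were read as sharing mice. After subtraction of group means, 15 same-numbered pairs of libraries correlated across genes at a median r of 0.12 (-0.59 to 0.77) and 30 other pairs at -0.04 (-0.78 to 0.69). The block was an alternative because the methods state none. Other alternatives were DESeq2 1.42.0, size factors by RLE, 2 further count filters (at least 1 count in any library, at least 10 in every library), no fold threshold, only the groups compared, only 32-week mice and omission of each library. Promoters came from RefSeq (GRCm38.p6), and lengths and positions from GENCODE M21 (GRCm38).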

Additional observations from a re-analysis of the deposited data

Results flagged for a closer look

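For Fzd4 the difference between tdT+ and tdTneg cells differed between the populations by a test of the difference itself (-4.91 on the log2 scale, edgeR's quasi-likelihood test). It was -4.64 in CD49f+CD34+SCA-1+ cells and 0.27 in CD49f+CD34+ cells (interval -0.58 to 1.11). The 8 endothelial markers also separated the tdTneg CD49f+CD34+SCA-1+ libraries from the others, and their part in this result was not tested.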

How the results depend on the processing

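The number of called genes of the 55 stayed within 1.5 times of the reported number in the comparisons and settings not named here. With replicates 2 and 3 alone (32 weeks), which leave 1 tdTneg CD49f+CD34+SCA-1+ library, 7 were called on the mean over tdT, 4 within tdT+, 0 within tdTneg, 0 for tdT in CD49f+CD34+SCA-1+ cells and 0 for the difference between populations. The replicate block gave 10 within tdTneg cells and beyond the calls named with the results changed no other. DESeq2 gave 3 for tdT in CD49f+CD34+ cells, 12 in CD49f+CD34+SCA-1+ cells and 3 for the difference between populations. Keeping genes with at least 1 count in any library gave 3 and 9 for the tdT comparisons, at least 10 counts in every library gave 10 in CD49f+CD34+SCA-1+ cells, and fitting only the groups compared gave 8. Leaving out 1 library gave 15 to 23 within tdT+, 0 to 16 within tdTneg, 1 to 9 for tdT in CD49f+CD34+SCA-1+ cells (9 without tdT+ CD49f+CD34+ replicate 3) and 0 to 2 for the difference between populations (2 without tdT+ CD49f+CD34+ replicate 3). The population difference of Tcf7 reversed to 0.16 with 32-week mice alone and to 0.092 without tdTneg CD49f+CD34+SCA-1+ replicate 1, the range over omitted libraries being -0.29 to 0.092. The causes were not tested. Of the alternatives for single genes, 1043 kept direction and side of the threshold, 200 lost the call, 1 gained it and 2 reversed. Scaling by RLE moved the median over all genes by -0.12 in the difference between populations and by less than 0.1 elsewhere. Where omission left 1 library in a group, its spread was assumed to be that of the others. Low counts limit Dkk2, Rspo1, Sfrp2, Nkd2, Wnt7a and Wnt9a, whose intervals on the mean over tdT reach beyond 1 log2 unit on both sides of 0.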
